A study of Mus musculus with 6 samples.

Results

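The matrix-degrading and shedding metalloproteinases and their tissue inhibitors were followed in F4/80+ cells, a macrophage-enriched fraction, taken from tumours grown in wild type or St2-/- mice. The families were chosen by name, but with earlier results of these data known. The members were every gene whose symbol starts with Mmp, Adam, Adamts or Timp and a number. They were 78 of the 19938 genes measured, comprising 22 Mmp, 34 Adam, 18 Adamts and 4 Timp genes. Each genotype group held 3 samples, and RNA of each was hybridised to its own Affymetrix Gene 1.0 ST array. ST2 is the receptor of the cytokine IL-33, and St2-/- refers to the mouse that received the tumour. The labels name neither the tumour, the strain and age of the mice, nor any treatment, and leave unsaid if each sample is a separate animal. The p-values therefore rest on the spread among these samples, which could be technical.

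Values are log2 expression values made by the authors with RMA (robust multi-array average), and differences are St2-/- minus wild type on that scale. All 12 measured macrophage markers lay outside the dimmest 40% of genes. Adgre1, the gene of F4/80, averaged 11.32 ± 0.04 in wild type (SD, n = 3) and 11.63 ± 0.04 in St2-/- (SD, n = 3). By the same rule 12 of 15 fibroblast and pericyte and 7 of 12 endothelial markers lay outside too. The rule therefore does not show that other cells were absent. Across all genes arrays correlated at 0.996 to 0.998 within groups and 0.986 to 0.988 between them, so no array stood apart from its group. The level of the targeted gene was not analysed here. These are bulk samples, in which fewer cells of a type and less RNA per cell cannot be told apart.

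All 3 protease families are zinc-dependent endopeptidases of the metzincin clan. Mmp enzymes, secreted or held at the membrane, are made as inactive proforms and together cleave collagens, elastin, proteoglycans and many signalling proteins. Adam proteins span the cell membrane, and those with an active catalytic site release the outer part of other membrane proteins, a cleavage called shedding. Adamts enzymes are secreted, carry thrombospondin repeats and cut mainly proteoglycans and procollagens. Timp proteins bind the active site of these enzymes and block it. In tumours, macrophages are a known source of several of these enzymes. An mRNA level says nothing of how much proform was activated.

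Most of the changes were falls, and they included 2 of the 4 inhibitors, Timp1 and Timp2, and the proteases Adamts1, Mmp9, Mmp19, Adamts4 and Adam19. The rises were few: the proteases Mmp25, Mmp13 and Mmp12 and the sheddases Adam10 and Adam17. With limma and an adjusted p under 0.05 over all genes as the call, 24 of 78 members (30.8%) were called, against 20.8% of all genes. Of these 19 (24.4%) were lower in St2-/-, against 10% of all genes, and 5 (6.41%) were higher, against 10.7%. The median difference over the members was -0.10, and over all genes -0.02. The median value of an array over all genes was 5.88 to 5.93 in wild type and 5.81 to 5.82 in St2-/-. A median difference as small as that of the members therefore depends on the scaling. The effect of scaling also varied with level: cyclic loess moved the dim Timp3 from -0.33 to -0.25 and the bright Adam10 from 0.44 to 0.35. A call together with a change of at least 2-fold was found for 4 members, Timp1, Timp2, Adamts1 and Mmp25, while 1.53% of all genes met that rule. The arrays of the groups did not overlap for 32 members (41.0%), against 36.4% of all genes. With arrays centred on their medians, 7 members were called higher and 14 lower (26.9% called). Of all 19938 genes 3686 were then called higher and 1294 lower (25% called).

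By family, 3 Mmp genes were higher and 5 lower, 2 Adam genes higher and 6 lower, 6 Adamts genes lower and none higher, and 2 Timp genes lower and none higher. The share called was 36.4% for Mmp, 33.3% for Adamts and 23.5% for Adam, against 20.8% of all genes. The Adam share was thus close to that of all genes. By direction, 17.6% of Adam genes were lower and 5.88% higher, against 10% and 10.7% of all genes. With arrays centred on their medians or normalized by cyclic loess, still no Adamts or Timp gene was called higher, and at an unadjusted p under 0.05 0 Adamts and 0 Timp genes were higher. The medians of the families were -0.04 for Mmp, -0.07 for Adam, -0.27 for Adamts and -0.81 for Timp. The Mmp median turned to 0.05 and the Adam median to 0.02 after centring, and the Mmp median to 0.04 after cyclic loess, so no direction is given for those families as a whole. Members were often dim: 48 of 78 had a mean over all 6 arrays within the lowest 40% of genes, below 5.26. Of those 48 members 3 were called, against 6.38% of all dim genes, and of the other 30 members 21 were called, against 30.3% of all brighter genes. This split is a description, since a deposited value carries no statement on detection and a low value may be background.

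**Figure D1:**
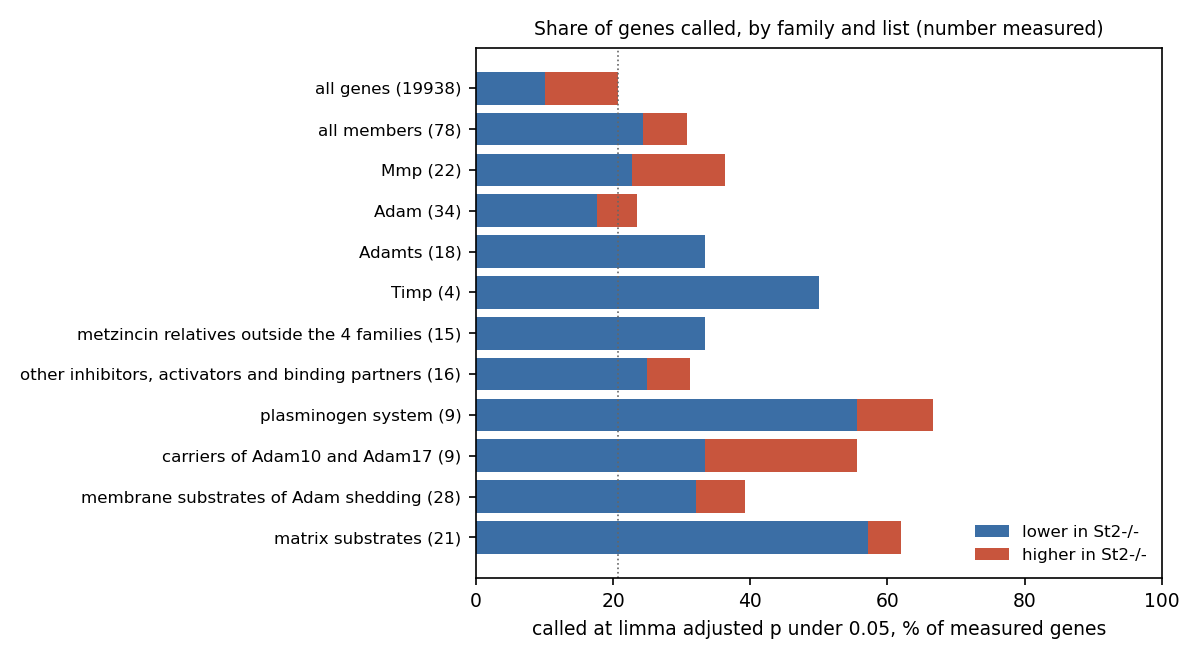
Horizontal bars give the percent of measured genes called lower (blue) or higher (red) in St2-/- by limma at an adjusted p under 0.05, for all genes, all members, the 4 families and the 6 lists of related genes, with the number measured in brackets. The dotted line marks the 20.8% of all genes, and the Adamts and Timp bars hold lower calls only.

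**Figure D2:**
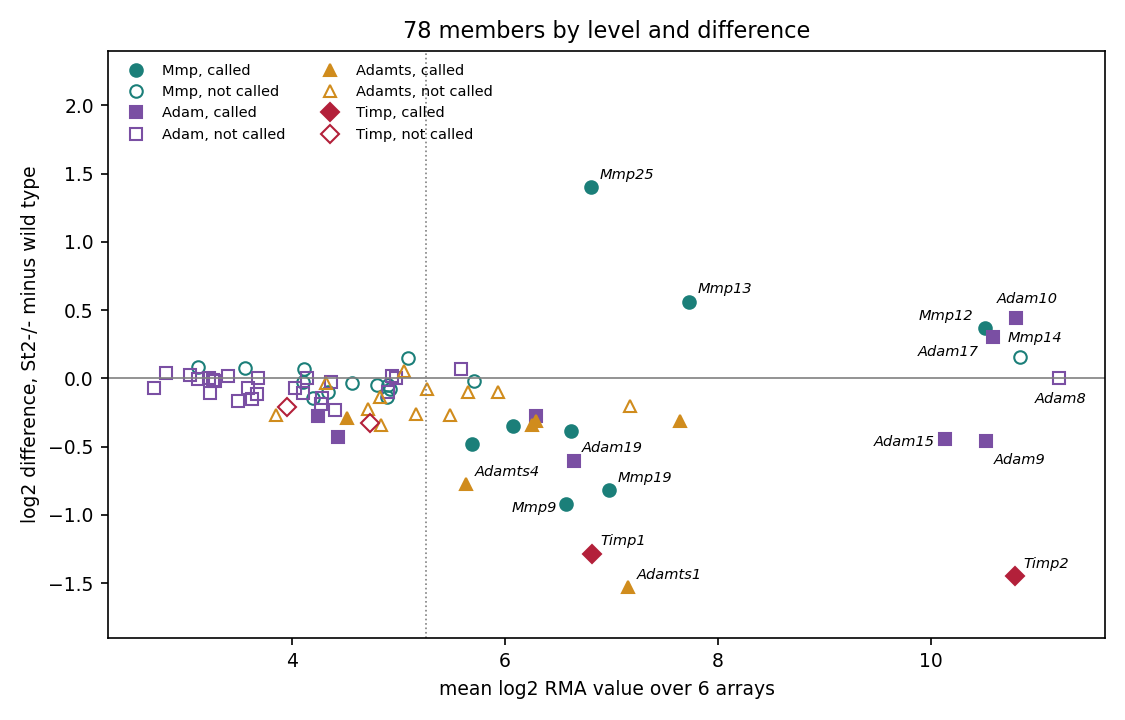
Each of the 78 members is placed by its mean log2 RMA value over 6 arrays (horizontal) and its log2 difference, St2-/- minus wild type (vertical), with colour and shape by family and filled marks for called genes. The dotted line at 5.26 bounds the dimmest 40% of genes, left of which differences run from -0.43 (Adam34l) to 0.15 (Mmp10), while Timp2, Timp1, Adamts1 and Mmp25 lie beyond a difference of 1 in size.

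Of the inhibitors, Timp2 and Timp1 fell. Timp2 protein inhibits most Mmp enzymes and, bound to Mmp14 at the cell surface, also takes part in activating the Mmp2 proform. Its values were 11.59, 11.47 and 11.50 in wild type and 10.04, 10.07 and 10.10 in St2-/-. The St2-/- arrays lay close to one another and far below each wild type array. Timp2 averaged 11.52 ± 0.06 in wild type (SD, n = 3) and 10.07 ± 0.03 in St2-/- (SD, n = 3), a difference of -1.45 ± 0.06 (SE) and a 2.73-fold lower level (limma adjusted p = 4.37e-07). Timp1, a secreted inhibitor that inflammatory signals are known to induce, had values of 7.59, 7.64 and 7.15 in wild type and 6.52, 6.17 and 5.84 in St2-/-. The groups did not overlap, but both spread more than for the other called members. Timp1 averaged 7.46 ± 0.27 in wild type (SD, n = 3) and 6.18 ± 0.34 in St2-/- (SD, n = 3), a difference of -1.28 ± 0.17 (SE) and a 2.43-fold lower level (limma adjusted p = 0.000609). Its call was lost when each gene's own variance was used in a plain two-sample test (adjusted p = 0.0505) and in limma's test for more than 1.5-fold change (0.0693), and over all alternatives its adjusted p ranged from 8.24e-06 to 0.0693.

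The other 2 inhibitors were dim and were not called. Timp3, which binds to the matrix and also inhibits Adam17, had values of 4.67, 4.82 and 5.21 in wild type and 4.62, 4.45 and 4.64 in St2-/-. All St2-/- arrays were below all wild type arrays by a narrow margin, and the difference of -0.33 ± 0.13 (SE) did not pass (limma adjusted p = 0.0988). Without wild type replicate 1 it passed, with a difference of -0.45 (limma adjusted p = 0.0399). Timp4 values were 4.04, 3.87 and 4.27 in wild type and 3.89, 3.74 and 3.92 in St2-/-, groups that overlapped, with a difference of -0.21 ± 0.10 (SE) (limma adjusted p = 0.187).

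**Figure D3:**
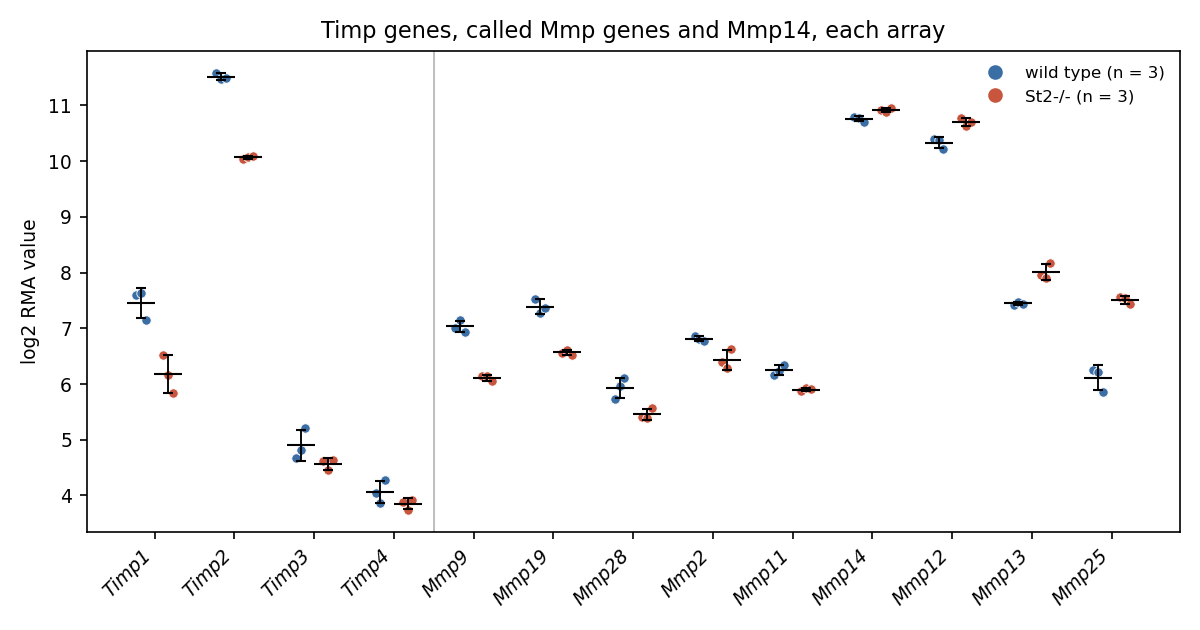
Points are the log2 RMA values of the single arrays, blue for wild type and red for St2-/- (n = 3 each), and black marks are the group mean with its SD, for the 4 Timp genes (left of the grey line) and the called Mmp genes with Mmp14. Timp2 and Timp1 lie 1.45 and 1.28 lower in St2-/-, and Mmp25 lies 1.40 higher.

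Both gelatinases, Mmp9 and Mmp2, which digest denatured collagen and the type IV collagen of basement membranes, fell. Mmp9 values were 7.01, 7.15 and 6.94 in wild type and 6.14, 6.15 and 6.05 in St2-/-. The lowest wild type array was well above the highest St2-/- array, and the difference was -0.92 ± 0.07 (SE), a 1.89-fold lower level (limma adjusted p = 2.12e-05). Mmp2 averaged 6.81 ± 0.05 in wild type (SD, n = 3) and 6.43 ± 0.17 in St2-/- (SD, n = 3), a difference of -0.38 ± 0.09 (SE) (limma adjusted p = 0.0135). The call of Mmp2 was lost without St2-/- replicate 2 (limma adjusted p = 0.0503) and in the plain two-sample test (0.101). Mmp14, the membrane protease that activates the Mmp2 proform, averaged 10.76 ± 0.05 in wild type (SD, n = 3) and 10.92 ± 0.04 in St2-/- (SD, n = 3). Its arrays did not overlap, but the difference of 0.16 ± 0.06 (SE) was not called (limma adjusted p = 0.104). It was called higher with arrays centred on their medians (difference 0.25, limma adjusted p = 0.0208), with an intensity trend in the variance prior (0.00812) and with dim genes left out (0.0496). After cyclic loess its difference shrank to 0.07 (limma adjusted p = 0.501). Of the 3 genes of the Mmp14, Timp2 and Mmp2 activation route, Timp2 and Mmp2 fell. For Mmp14 no direction is given, since its call depended on the scaling and the test.

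Of the other Mmp genes, Mmp19, a broad matrix protease found in blood vessel walls and myeloid cells, had values of 7.53, 7.27 and 7.36 in wild type and 6.56, 6.61 and 6.53 in St2-/-. The groups were far apart, with a difference of -0.82 ± 0.08 (SE) and a 1.76-fold lower level (limma adjusted p = 6.38e-05). Mmp28, or epilysin, fell by 0.48 on the log2 scale (limma adjusted p = 0.00682), with means of 5.93 in wild type and 5.45 in St2-/-. In the plain two-sample test Mmp28 did not pass (adjusted p = 0.0857). Mmp11, stromelysin 3, known from the stroma around carcinomas, fell by 0.35 (limma adjusted p = 0.0057), from a mean of 6.25 to 5.90.

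The largest rise among all members was that of Mmp25, a protease anchored to the membrane by a lipid and known from leukocytes, neutrophils above all. Its values were 6.26, 6.22 and 5.85 in wild type and 7.56, 7.54 and 7.43 in St2-/-. All St2-/- arrays lay more than 1 unit above all wild type arrays, of which replicate 3 was the lowest. The difference was 1.40 ± 0.11 (SE), a 2.64-fold higher level (limma adjusted p = 1.51e-05). Of 11 neutrophil markers measured on the same arrays, Csf3r was called higher (0.50) and S100a8 (-1.77), S100a9 (-1.69), Retnlg (-1.28) and Cxcr2 (-0.37) lower. Their mean level was 5.29 to 5.38 over the wild type arrays and 4.83 to 4.89 over the St2-/- arrays. The defining granule genes Mpo, Elane, Camp, Ltf and Ngp, as well as Ly6g and Cxcr2, were among the dimmest 40% of genes. Their part in the values of Mmp25 and of Mmp9, which neutrophils also store, was not tested. Mmp8, the collagenase of neutrophil granules, was dim as well, with a difference of -0.10 ± 0.07 (SE), and was not called (limma adjusted p = 0.383).

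Mmp13 and Mmp12 rose and are neighbours. They open a run of 10 Mmp genes that follow one another on chromosome 9 in the mouse reference gene table, in the order Mmp13, Mmp12, Mmp1b, Mmp3, Mmp1a, Mmp10, Mmp8, Mmp27, Mmp20 and Mmp7. Mmp13, a collagenase of fibrillar collagen, had values of 7.42, 7.48 and 7.44 in wild type and 7.95, 7.90 and 8.18 in St2-/-. The St2-/- arrays were all higher, and the difference was 0.56 ± 0.08 (SE), a 1.48-fold higher level (limma adjusted p = 0.000958). Mmp12, the macrophage elastase, averaged 10.33 ± 0.10 in wild type (SD, n = 3) and 10.70 ± 0.07 in St2-/- (SD, n = 3), a difference of 0.37 ± 0.07 (SE) (limma adjusted p = 0.00596). The other 8 genes of the run were all among the dimmest 40% of genes, with differences between -0.10 (Mmp8) and 0.15 (Mmp10). Limma called 0 of the 8, against 6.38% of all dim genes, so the count does not set them apart from other dim genes. Of the 8, 1 had an unadjusted p under 0.05. This was Mmp10, the only one of the 8 whose arrays stood apart by group (limma adjusted p = 0.135), and it was called higher with arrays centred on their medians and after cyclic loess. Mmp1a and Mmp1b are close relatives that the probes may not tell apart.

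**Figure D4:**
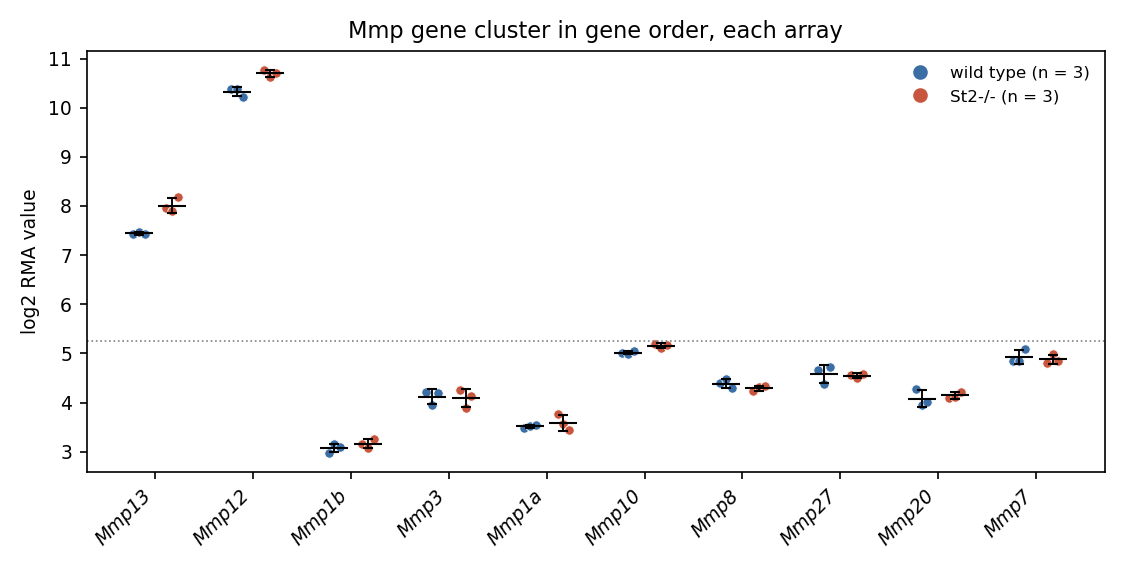
The 10 Mmp genes of the chromosome 9 run stand in gene order along the horizontal axis, with the log2 RMA value of each array (blue wild type, red St2-/-, n = 3 each) and black group means with SD. Mmp13 and Mmp12 lie above the dotted line at 5.26 that bounds the dimmest 40% of genes and are higher in St2-/-, and the other 8 lie below it.

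The run's start regions are shown because sequence matches common to most of its genes, called and uncalled, lie there. The following stretches are the 100 bases before the annotated start, from the RefSeq promoter table of build GRCm38.p6, 5′ to 3′ on the gene's strand. Capitals mark a match to TGANTCA, the AP-1 site with its middle base left open, or to TATAAA, the TATA box, on either strand. Mmp12 has 2 annotated starts. Mmp3 and Mmp10 stand for the uncalled genes.
Mmp13: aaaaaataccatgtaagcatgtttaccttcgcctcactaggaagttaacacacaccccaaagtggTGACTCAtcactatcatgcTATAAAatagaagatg
Mmp12, first start: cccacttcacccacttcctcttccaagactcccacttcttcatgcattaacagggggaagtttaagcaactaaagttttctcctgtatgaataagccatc
Mmp12, second start: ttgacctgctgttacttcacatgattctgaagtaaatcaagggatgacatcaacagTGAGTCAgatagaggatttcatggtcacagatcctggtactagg
Mmp3: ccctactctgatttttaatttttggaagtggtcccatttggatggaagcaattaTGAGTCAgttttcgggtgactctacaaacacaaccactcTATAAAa
Mmp10: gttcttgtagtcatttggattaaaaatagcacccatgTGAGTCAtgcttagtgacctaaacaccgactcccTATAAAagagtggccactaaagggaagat

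They lie at chr9:7272414-7272513 (plus strand), chr9:7344297-7344396 (plus strand), chr9:7347274-7347373 (plus strand), chr9:7445722-7445821 (plus strand) and chr9:7502242-7502341 (plus strand). In the 250 bases before the start, 8 of the 10 genes of the run held TGANTCA, all but Mmp8 and Mmp27, and 7 held TATAAA. The match in Mmp20 was TGAATCA, and those in the others were TGAGTCA or TGACTCA. Of all 32851 promoters of the table, 6.75% held TGANTCA and 12.4% held TATAAA. The AP-1 match began 35 bases before the start in Mmp13, 44 before the second start of Mmp12, 46 in Mmp3 and 63 in Mmp10. Both genes of the run that rose thus carry it, Mmp12 at its second start only, and so do the uncalled genes other than Mmp8 and Mmp27. Over the 48 members with a promoter in the table, 12 (25%) held TGANTCA, among them 2 of 5 called higher, 1 of 11 called lower and 9 of 32 not called. These 12 include the 8 genes of the run, and the 2 called higher are Mmp13 and Mmp12, so the counts are not separate from those of the run. A member counted if any of its starts held the match, while the share of all promoters counts each start singly. TTCNNNGAA, the site of STAT factors, was found in 4 of the 48 (8.33%) and in 7.02% of all promoters, and in none of the run. A match is a description of letters, not a site in use.

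The members with the largest changes outside the run are shown for comparison over the same 100 bases.
Mmp25: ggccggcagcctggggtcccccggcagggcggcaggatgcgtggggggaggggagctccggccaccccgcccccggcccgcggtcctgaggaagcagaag
Timp1: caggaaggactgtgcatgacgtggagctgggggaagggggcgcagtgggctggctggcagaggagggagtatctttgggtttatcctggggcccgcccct
Timp2: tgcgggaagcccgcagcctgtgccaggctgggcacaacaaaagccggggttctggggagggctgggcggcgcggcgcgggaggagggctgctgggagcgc
Adamts1: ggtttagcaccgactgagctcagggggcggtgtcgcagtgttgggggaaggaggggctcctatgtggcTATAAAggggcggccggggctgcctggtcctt

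These lie at chr17:23645270-23645369 (minus strand), chrX:20870066-20870165 (plus strand), chr11:118355412-118355511 (minus strand) and chr16:85803114-85803213 (minus strand). Adamts1 held TATAAA from 32 bases before its start, and no letters of the 3 motifs were found in the 250 bases of the other 3 genes.

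Among Adam genes the widely expressed sheddases split by direction. Adam10, which sheds Notch receptors, cadherins and chemokines, averaged 10.58 ± 0.06 in wild type (SD, n = 3) and 11.02 ± 0.07 in St2-/- (SD, n = 3). It rose, with a difference of 0.44 ± 0.07 (SE) (limma adjusted p = 0.00132). Adam17, which releases TNF and several growth factors, rose too: it averaged 10.43 ± 0.04 in wild type (SD, n = 3) and 10.73 ± 0.07 in St2-/- (SD, n = 3), a difference of 0.30 ± 0.07 (SE) (limma adjusted p = 0.00965). Their relatives Adam9 and Adam15, both sheddases that also bind integrins, fell. Adam9 averaged 10.75 ± 0.03 in wild type (SD, n = 3) and 10.29 ± 0.04 in St2-/- (SD, n = 3), a difference of -0.46 ± 0.06 (SE) (limma adjusted p = 0.000556). Adam15 averaged 10.36 ± 0.05 in wild type (SD, n = 3) and 9.91 ± 0.03 in St2-/- (SD, n = 3), a difference of -0.45 ± 0.06 (SE) (limma adjusted p = 0.000716). For each of these 4 genes the arrays of the groups did not overlap, and each kept its call in all alternatives other than the minimum fold of 1.5. The changes were small, between 1.23-fold (Adam17) and 1.38-fold (Adam9).

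Adam19, a sheddase of neuregulins known from dendritic and mesenchymal cells, had the largest change in its family. Its values were 7.05, 6.90 and 6.90 in wild type and 6.26, 6.36 and 6.42 in St2-/-, groups that did not overlap, with a difference of -0.60 ± 0.07 (SE) and a 1.52-fold lower level (limma adjusted p = 0.000303). Adam8, a sheddase of leukocytes, averaged 11.21 in both groups, with a difference of 0.00 ± 0.06 (SE), a 95% interval of -0.13 to 0.13, and was not called. Adam33 (difference -0.28 ± 0.09 (SE), limma adjusted p = 0.048) was called in few of the alternatives, as it failed under 14 of 18. They include the replicate block (limma adjusted p = 0.0708) and leaving out any 1 array other than wild type replicate 2 (0.0559 to 0.153).

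The remaining Adam genes are mostly known from testis, and 26 of the 34 family members were among the dimmest 40% of genes. Of these, Adam21 (-0.27 ± 0.08 (SE), limma adjusted p = 0.0302) and Adam34l (-0.43 ± 0.13 (SE), limma adjusted p = 0.0465) were called lower. Adam21 was no longer called (limma adjusted p from 0.0653 to 0.106) when any 1 of wild type replicates 1 and 3 and St2-/- replicates 1 and 2 was left out. Adam34l was not called (0.0514 to 0.145) when any 1 array other than wild type replicate 2 was left out. With the replicate block it was called (limma adjusted p = 0.0043). Adam34l has near-identical neighbours, Adam34, Adam26a and Adam26b, so its value is uncertain, and a probe set shared by that group, left out of the main comparison, differed by -0.28. The number of called Adam genes went from 8 to 5 in each of the same 4 omissions as for Adam21. The 26 uncalled Adam genes had differences between -0.23 (Adam4) and 0.07 (Adam11).

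**Figure D5:**
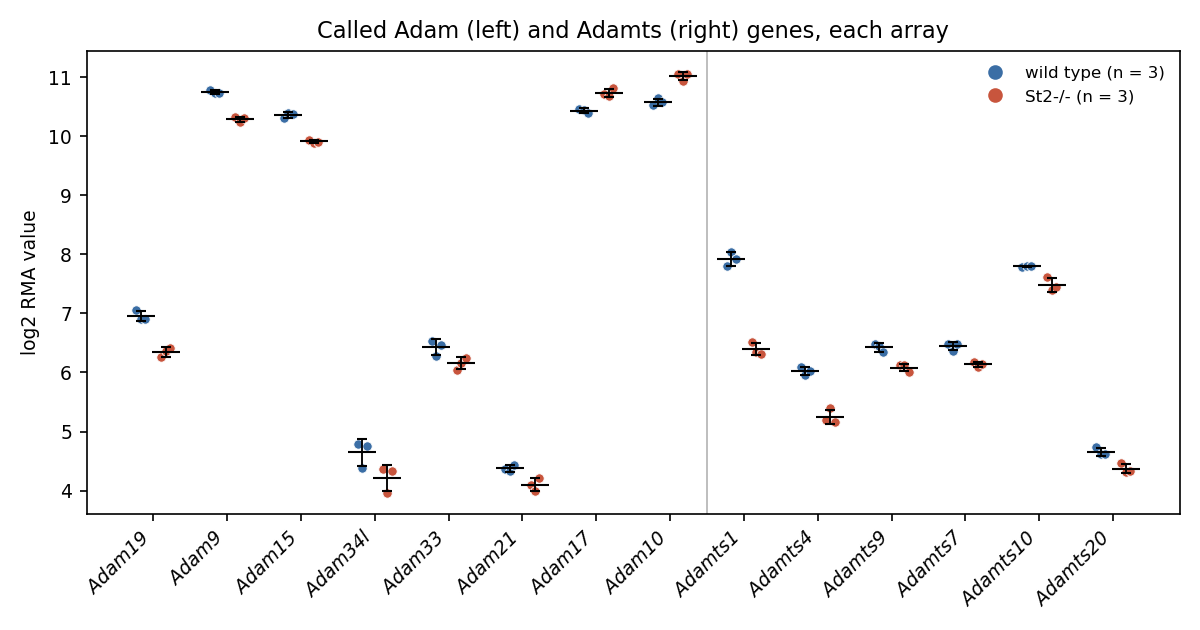
Points are log2 RMA values of the single arrays (blue wild type, red St2-/-, n = 3 each) with black group means and SD, for the 8 called Adam genes (left of the grey line) and the 6 called Adamts genes (right), each ordered by difference. Adam17 and Adam10 are the only 2 with higher values in St2-/-, and Adamts1 shows the widest gap, 1.53 units.

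Of 18 Adamts genes measured, 6 were called, all lower, and 12 were not called. Adamts1, a proteoglycan-cutting enzyme that inflammation and hypoxia are known to induce, had values of 7.81, 8.04 and 7.92 in wild type and 6.52, 6.35 and 6.32 in St2-/-. The lowest wild type array was more than 1 unit above the highest St2-/- array. Adamts1 averaged 7.92 ± 0.12 in wild type (SD, n = 3) and 6.40 ± 0.11 in St2-/- (SD, n = 3), a difference of -1.53 ± 0.08 (SE) and a 2.88-fold lower level (limma adjusted p = 1.75e-06). Its neighbour on chromosome 16, the aggrecanase gene Adamts5, was dim and not called, at -0.27 ± 0.09 (SE) (limma adjusted p = 0.0664), though its arrays did not overlap. Adamts4, the other main aggrecanase, had values of 6.09, 5.95 and 6.03 in wild type and 5.20, 5.39 and 5.16 in St2-/-. Again the groups were apart, with a difference of -0.77 ± 0.08 (SE) and a 1.71-fold lower level (limma adjusted p = 0.000101).

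Smaller falls were called for Adamts9, a versican-cutting enzyme (-0.34 ± 0.07 (SE), limma adjusted p = 0.00666), and Adamts7, which cuts the cartilage protein COMP (-0.31 ± 0.07 (SE), limma adjusted p = 0.00804). Adamts10, a partner of fibrillin fibres (-0.31 ± 0.07 (SE), limma adjusted p = 0.0144), and the versicanase gene Adamts20 (-0.29 ± 0.07 (SE), limma adjusted p = 0.0164) were called as well. Adamts10 lost its call without St2-/- replicate 2 or 3 (limma adjusted p = 0.0585 and 0.0604), and Adamts20 (0.0573 to 0.0666) when St2-/- replicate 2 or 3, or wild type replicate 1, was left out. Of the 7 proteoglycan-cutting genes Adamts1, Adamts4, Adamts5, Adamts8, Adamts9, Adamts15 and Adamts20, 4 were lower and 3 not called, with a median of -0.29. Neither measured procollagen peptidase gene was called: Adamts3 differed by -0.10 ± 0.09 (SE) and Adamts14 by -0.27 ± 0.11 (SE). Among the others Adamts13, which cuts von Willebrand factor, differed by -0.26 ± 0.13 (SE) and was not called. Adamts3, Adamts9 and Adamts17 had 16, 6 and 5 probe sets. With p-values adjusted over the whole deposited table, limma called 1 of the 16 Adamts3 probe sets, lower, 2 of the 6 for Adamts9, both lower, and 0 of the 5 for Adamts17, of which 0 had an unadjusted p under 0.05.

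Genes that work with these families were read from 6 lists. Called were 61.9% of the matrix proteins, 66.7% of the plasminogen system and 33.3% of the relatives outside the 4 families. The share was 31.2% for other inhibitors, activators and partners, 55.6% for carriers and 39.3% for shed membrane proteins. Of all genes 20.8% were called, and of the brighter genes 30.3%. The matrix proteins that Mmp and Adamts enzymes cut fell in the main: of 21 measured, 12 were lower and 1 higher, with a median of -0.61 against -0.02 over all genes. The list shares Dcn, Lum and 3 collagen genes with the fibroblast markers below, and Vwf with the endothelial markers. The small proteoglycans Dcn (-3.33), Bgn (-1.98) and Lum (-3.56) and fibronectin, Fn1 (-1.72), had the smallest p, and Col1a2, chosen after its value was seen, was the gene called higher (0.35). In the plasminogen system, which activates Mmp proforms, 5 of 9 were lower and 1 higher (median -0.57). The urokinase inhibitor gene Serpinb2 (-2.23), the plasminogen receptor partners S100a10 (-0.89) and Anxa2 (-0.61) and the urokinase receptor gene Plaur (-0.57) fell. Plau, urokinase itself, was the 1 gene called higher (0.30 ± 0.06 (SE)), named after its value was seen.

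Relatives outside the 4 families had 5 of 15 lower and 0 higher in limma (median -0.09), with 1 higher at an unadjusted p under 0.05. They included the Adamts-like genes Adamtsl5 (-0.76) and Adamtsl2 (-0.44), which lack a protease domain, and Bmp1 (-0.67) and Tll1 (-0.42), which trim procollagen. Of 16 other inhibitors, activators and binding partners, 4 were lower and 1 higher (median -0.09). Lcn2 (-2.90), whose human protein binds MMP9, the procollagen trimming enhancer gene Pcolce (-0.97) and Lrp1, a receptor that clears proteases (-0.49), fell. Furin, which activates membrane-type Mmp and Adam proforms, rose (0.33 ± 0.06 (SE)). The inhibitor Reck was not called (-0.07 ± 0.06 (SE)).

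Adam10 and Adam17 need carrier proteins to mature. Of 9 such genes measured, 2 were higher and 3 lower (median -0.21). The 2 iRhom genes, which carry Adam17, went opposite ways, Rhbdf2 higher (0.29 ± 0.06 (SE), limma adjusted p = 0.00726) and Rhbdf1 lower (-0.58 ± 0.06 (SE), limma adjusted p = 0.000139). Of the tetraspanins that carry Adam10, Tspan17 (-0.57) and Tspan5 (-0.29) fell and Tspan33 rose (0.47). Of 28 membrane proteins shed by Adam enzymes, 9 were lower and 2 higher (median -0.05). The lower calls were 32.1% of the list, against 10% of all genes. Of the 28, 25 were among the brighter genes, and 9 of these were lower, against 1579 of all 11964 brighter genes. The list shares Cdh5 with the endothelial, Mertk and Csf1r with the macrophage and Cdh1 with the tumour markers below. Cd163 (-3.19), Cdh5 (-1.46) and Mertk (-0.72) fell and Cxcl16, a chemokine shed by Adam10, rose (0.58). Tnf, the substrate that gave Adam17 its first name, fell by 0.35 on the log2 scale (limma adjusted p = 0.00341), while Adam17 rose. Tnf was chosen after its value was seen.

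Markers of other cells moved with genotype on the same arrays. Called were 73.3% of fibroblast and pericyte, 91.7% of endothelial, 60% of T and NK cell and 62.5% of dendritic cell markers. The share was 45.5% for the neutrophil markers above and 50% for macrophage markers, against 20.8% of all genes. Of 15 fibroblast and pericyte markers 10 were lower and 1 higher, and their mean level was 7.43 to 7.44 over the wild type arrays and 6.36 to 6.44 over the St2-/- arrays. Pdgfra (-1.74) and Pdgfrb (-1.40) were among those lower, and Dpt, Rgs5 and Fap were in the dimmest 40% of genes by mean. Fibroblasts are a known source of Timp1, Timp2, Mmp2, Mmp11, Mmp19 and several Adamts genes, and the part of these cells in the falls was not tested. Endothelial markers did not all move one way: of 12, 9 were lower and 2 higher. The 2 higher were Kdr (1.52) and Pecam1 (0.89), and Cdh5 (-1.46), Emcn (-1.31) and Vwf (-1.13) fell most. The mean level of the 12 was 5.86 to 5.97 over the wild type arrays and 5.59 to 5.62 over the St2-/- arrays. Emcn, Tie1, Erg, Cldn5 and Tek were dim. The part of endothelial cells in the fall of Adamts1, which endothelium also makes, was not tested. T and NK cell markers had 6 of 10 higher and 0 lower in limma, and 0 lower at an unadjusted p under 0.05 (mean level 4.36 to 4.41 over the wild type arrays and 4.78 to 4.81 over the St2-/- arrays), with Cd3d, Cd3g, Gzma, Gzmb, Klrb1c, Ncr1 and Nkg7 dim. Dendritic cell markers had 3 of 8 higher and 2 lower (5.52 to 5.69 over the wild type arrays and 6.33 to 6.44 over the St2-/- arrays), with Cd209a, Flt3 and Itgae dim, and the part of both in the rises of Mmp25, Adam10 and Adam17 was not tested. Macrophage markers had 3 of 12 higher and 3 lower, with a mean level of 11.38 to 11.41 over the wild type arrays and 11.33 to 11.39 over the St2-/- arrays.

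Marker lists of 4 further kinds of cell or tissue were also read. Called were 22.2% of mast cell, 15.4% of tumour, 50% of B cell and 11.1% of muscle and fat markers, against 20.8% of all genes. Mast cell markers were all dim, with 2 of 9 lower, and epithelial and melanocytic tumour markers had 2 of 13 lower and 6 dim. Of 4 measured B cell markers 2 were higher, and 3 were dim. Of 9 muscle and fat markers 1 was lower, and 5 were dim.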

How the data were processed

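Each of 3 wild type and 3 St2-/- samples had its own Affymetrix array, per the labels' protocols. The authors summarised the arrays with RMA, per the submitters' processing notes, and deposited expression on what was taken as a log2 scale, as RMA returns it. No log base, RMA version, annotation or batch is given in the sources used here. RMA makes the arrays' distributions alike, so a change common to most genes would not show.

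Of 35556 probe sets, the platform table pairs 21789 with 1 symbol, and the brightest by mean over the 6 arrays stood for each gene, giving 19938 genes. The 78 members all matched the mouse reference table (GRCm38.p6), which served for gene order. No probe set with 1 symbol of Mmp15 or Adamts2 was analysed here.

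The genotypes were compared with limma 3.58.1 (R 4.3.3; linear model with moderated variance, two-sided, Benjamini-Hochberg over all genes, called at an adjusted p under 0.05, no filter). Precision is limited by the number of arrays. The script was tested on simulated data. Named were all Timp genes, all called members (with single arrays from a difference of 0.5), Adam10, Adam17, Mmp2, Mmp9 and Mmp14, and up to 4 called genes of each list with the smallest p. Other names were chosen after their values were seen. The members and lists were chosen with earlier results of these data known. Alternatives were other scalings, variance priors, array weights, rows, probe set rules, a dimness filter, the replicate block, each array omitted in turn, a plain two-sample test, a stricter threshold and a minimum fold of 1.5.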

Additional observations from a re-analysis of the deposited data

How the results depend on the processing

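Of the 24 called members, Mmp14, Timp3 and Timp4, none changed direction over 18 alternatives (17 for Timp3, Timp4, Adam21, Adam34l and Adamts20, which were not tested with dim genes left out). The other uncalled members were not followed singly. Timp2, Adamts1, Mmp25 and Mmp9 kept their call in all 18, and 16 of the 24 called members kept it in all but the stricter threshold and the minimum fold of 1.5. Limma's test for more than 1.5-fold change called 1 member higher and 3 lower, namely 2 Mmp, 0 Adam, 1 Adamts and 1 Timp genes. That test called 5.13% of members and 1.81% of all genes. In all it called 361 genes, against 4140 in the main comparison, and the others called 2353 to 4980. The plain two-sample test called 11 members lower, 5 Adam genes and 1 Timp gene. It called 20.5% of members, against 13.6% of all genes. Called Adam genes also numbered 5 after centring, after cyclic loess, over all rows and at an adjusted p under 0.01. With each array left out in turn, 5 members were higher each time and 14 to 21 lower, with 7 to 8 Mmp, 5 to 9 Adam, 4 to 7 Adamts and 2 to 3 Timp genes called. In these omissions 24.4% to 33.3% of members were called, against 14.5% to 19.3% of all genes. Centring moved the higher share of the members' calls from 20.8% to 33.3%, and that of all genes from 51.7% to 74%, with 3686 higher and 1294 lower. Samples with the same replicate number hardly shared deviations from their group means (correlations 0.012, -0.012 and -0.048). The sample titles number the replicates but name no pairs, and these correlations cannot tell if samples were handled as pairs. With the replicate block, 5 members were higher and 18 lower, Adam33 was the call lost, and 8 Mmp, 7 Adam, 6 Adamts and 2 Timp genes were called. The block fit called 29.5% of members, against 17.9% of all genes. With 3 arrays a group, signals near background limit what can be seen in the 48 dim members.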
